A study of Mus musculus with 5 samples.

Results

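The genes described here make, store, release or burn glucose in the liver, or carry the insulin and glucagon signals that set those processes. They form a list of 30 genes, compared between 2 liver samples from mice given an antibody against CSF1R and 3 from control mice. The list was split by role into gluconeogenesis, glucose entry and glycolysis, glycogen, and insulin and glucagon signalling. For each gene the probe set with the highest mean over the 5 arrays was taken, among probe sets that the platform annotation ties to exactly 1 gene symbol. Of the 30 genes, 28 had such a probe set, out of 18820 genes measured in this way. The other two, Pfkfb1 and Gpi1, have no expression values here and enter only the counts of promoter matches.

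Livers came from adult C57Bl/6 mice. Control mice received rat IgG and treated mice received M279, a blocking antibody against the receptor for colony-stimulating factor 1, on which most tissue macrophages depend. Both were injected into the peritoneum at 300 µg, 3 times per week for 6 weeks. Each of the 5 arrays measured 1 liver sample, and the labels do not say whether the samples came from separate animals, so the spread between samples may be partly technical. The receptor is found on macrophages, whereas the liver's enzymes of glucose and glycogen metabolism are mainly products of hepatocytes. In whole liver, fewer cells of a type and less RNA per cell cannot be told apart.

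The liver releases glucose between meals and takes it up after them. Glycogen is the short-term store, broken down by glycogen phosphorylase and rebuilt by glycogen synthase. Gluconeogenesis makes new glucose from lactate, amino acids and glycerol, and its last step is glucose-6-phosphatase. Insulin acts through its receptor, the adaptor proteins IRS1 and IRS2, phosphoinositide 3-kinase and the kinase AKT2, which keeps the transcription factor FOXO1 out of the nucleus and so lowers G6pc and Pck1. Glucagon acts through cyclic AMP and raises the same genes.

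Much of this hormone control lies in the DNA just before the genes' start sites. The windows below run from 250 bases before the start to 50 bases from it, on the gene's own strand, from RefSeq's assembly GRCm38.p6. G6pc and Pck1 are shown as textbook targets of insulin and glucagon, and Pfkfb3 and Irs1 as the pair with the largest differences among genes that were higher in treated liver with no overlap between groups. Ppp1r3b was the largest of those lower and is named only. Capitals mark matches, on either strand, to 6 motifs. They are GTAAACA (bound by FOXO factors), TGACG (the core of the cyclic AMP response element), CACGTG (the E-box found in carbohydrate response elements), AGAACA (part of the glucocorticoid response element), and TATAAA, which helps to place the start. The last is CAAAACA (letters shared by insulin response sequences, added after the others).
G6pc (chr11:101367466-101367765, plus strand): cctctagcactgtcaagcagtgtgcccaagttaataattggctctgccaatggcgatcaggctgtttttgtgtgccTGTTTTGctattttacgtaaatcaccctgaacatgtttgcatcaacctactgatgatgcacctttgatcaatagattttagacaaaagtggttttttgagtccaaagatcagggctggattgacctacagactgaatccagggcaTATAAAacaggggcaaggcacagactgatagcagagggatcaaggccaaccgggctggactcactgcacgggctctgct
Pck1 (chr2:173152823-173153122, plus strand): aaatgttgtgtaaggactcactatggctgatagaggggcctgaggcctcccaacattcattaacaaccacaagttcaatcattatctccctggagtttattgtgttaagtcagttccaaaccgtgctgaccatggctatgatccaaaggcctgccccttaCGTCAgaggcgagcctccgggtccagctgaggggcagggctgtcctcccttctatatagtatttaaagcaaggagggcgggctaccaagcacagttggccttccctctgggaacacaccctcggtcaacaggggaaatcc
Pfkfb3 (chr2:11553880-11554179, minus strand): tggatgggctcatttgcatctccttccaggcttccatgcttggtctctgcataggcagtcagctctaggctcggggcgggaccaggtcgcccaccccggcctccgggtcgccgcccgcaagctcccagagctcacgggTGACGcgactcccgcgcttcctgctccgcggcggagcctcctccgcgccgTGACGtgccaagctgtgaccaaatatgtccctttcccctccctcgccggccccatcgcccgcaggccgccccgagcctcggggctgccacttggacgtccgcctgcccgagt
Pfkfb3 (chr2:11502041-11502340, minus strand): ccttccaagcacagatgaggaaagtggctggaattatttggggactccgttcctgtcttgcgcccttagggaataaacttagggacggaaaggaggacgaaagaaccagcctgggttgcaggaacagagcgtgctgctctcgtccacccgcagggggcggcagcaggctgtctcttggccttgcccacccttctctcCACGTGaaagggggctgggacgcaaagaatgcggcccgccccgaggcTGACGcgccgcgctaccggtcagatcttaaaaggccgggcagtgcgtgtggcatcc
Irs1 (chr1:82291390-82291689, minus strand): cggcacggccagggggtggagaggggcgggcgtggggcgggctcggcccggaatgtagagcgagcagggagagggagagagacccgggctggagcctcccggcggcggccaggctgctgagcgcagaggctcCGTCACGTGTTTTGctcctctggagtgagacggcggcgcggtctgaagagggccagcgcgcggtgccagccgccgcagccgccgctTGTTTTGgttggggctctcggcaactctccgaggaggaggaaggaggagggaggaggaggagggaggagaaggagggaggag

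In the G6pc window the insulin response letters were found on the opposite strand, with their first base 174 bases before the start, and TATAAA 29 bases before it. The Pck1 window held 1 match to the cyclic AMP core, 90 bases before the start. Irs1 had a match to the cyclic AMP core 118 bases before the start, an E-box at 115 that overlaps it, insulin response letters at 111 that overlap the E-box, and a second copy of the insulin response letters at 32. Of the 2 Pfkfb3 starts, the first window held 2 matches to the cyclic AMP core and the second held 1, with an E-box. Across 32851 promoter windows of the same length, 20.8% held TGACG, 7.15% CACGTG, 6.28% CAAAACA, 3.65% GTAAACA, 19.0% AGAACA and 13.6% TATAAA. Of the 30 listed genes, 26 had an entry, Pfkfb1 and Gpi1 included, with 38 windows between them. Of these 38 windows, 13 held TGACG, 6 CACGTG, 4 CAAAACA, 1 (Txnip) GTAAACA, 1 (Gckr) AGAACA and 5 TATAAA. These are matches of letters and not tested binding sites.

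Array medians lay between 32.5 and 33.9 intensity units, and Pearson's r between arrays, on the log2 scale over all probe sets, was 0.983 to 0.992. Hepatocyte markers were present on all arrays, with albumin (Alb) between 13.09 and 13.20 in log2 intensity. Csf1r itself stood at 8.49, 8.68 and 8.61 in controls and at 7.93 and 8.12 in treated liver (-0.56 ± 0.12). Its ligands Csf1 (-0.24 ± 0.16) and Il34 (-0.13 ± 0.30) overlapped between groups. Over all 18820 genes the median log2 difference, treated minus control, was 0.04, but it was -0.10 over the 10488 bright genes, those whose probe set has a mean above the median of all probe sets. All 28 measured genes of the list are bright genes, which therefore serve as the nearer background.

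None of the 28 genes passed limma's test at an adjusted p of 0.05, where 0.0% of the 35556 probe sets passed. Their adjusted p-values ran from 0.187 for Ppp1r3b to 0.959 for Akt2, and 0 passed in every alternative fit, also with 1 probe set per gene fitted alone, where 0.0744% of genes passed. At an unadjusted p of 0.05, 2 of the 28 were higher in treated liver (Irs1 and Pfkfb3) and 2 lower (Ppp1r3b and Pik3r1), against 9.91% of all genes higher and 8.4% lower, and 2.16% and 14.2% of bright genes. Both treated arrays lay above all controls for 4 of the 28 genes and below all controls for 7. Over all genes these shares were 25.1% and 19.5%, and over the bright genes 8.64% and 32.6%. The list's share of genes apart in either direction was therefore of the same order as that of bright genes and is not a result about the list. Of the 28, 20 were lower and 8 higher by their means, with a median log2 difference of -0.17. Of the 10488 bright genes 6937 were lower and 3551 higher by their means, and of all 18820 genes 8230 and 10590. Counts of lower means, here and below, are to be read beside these. Every difference below is a measured value that did not pass. With groups of 2 and 3 arrays, the smallest p of an exact permutation test is 0.1, and single genes were not tested that way.

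**Figure D1:**
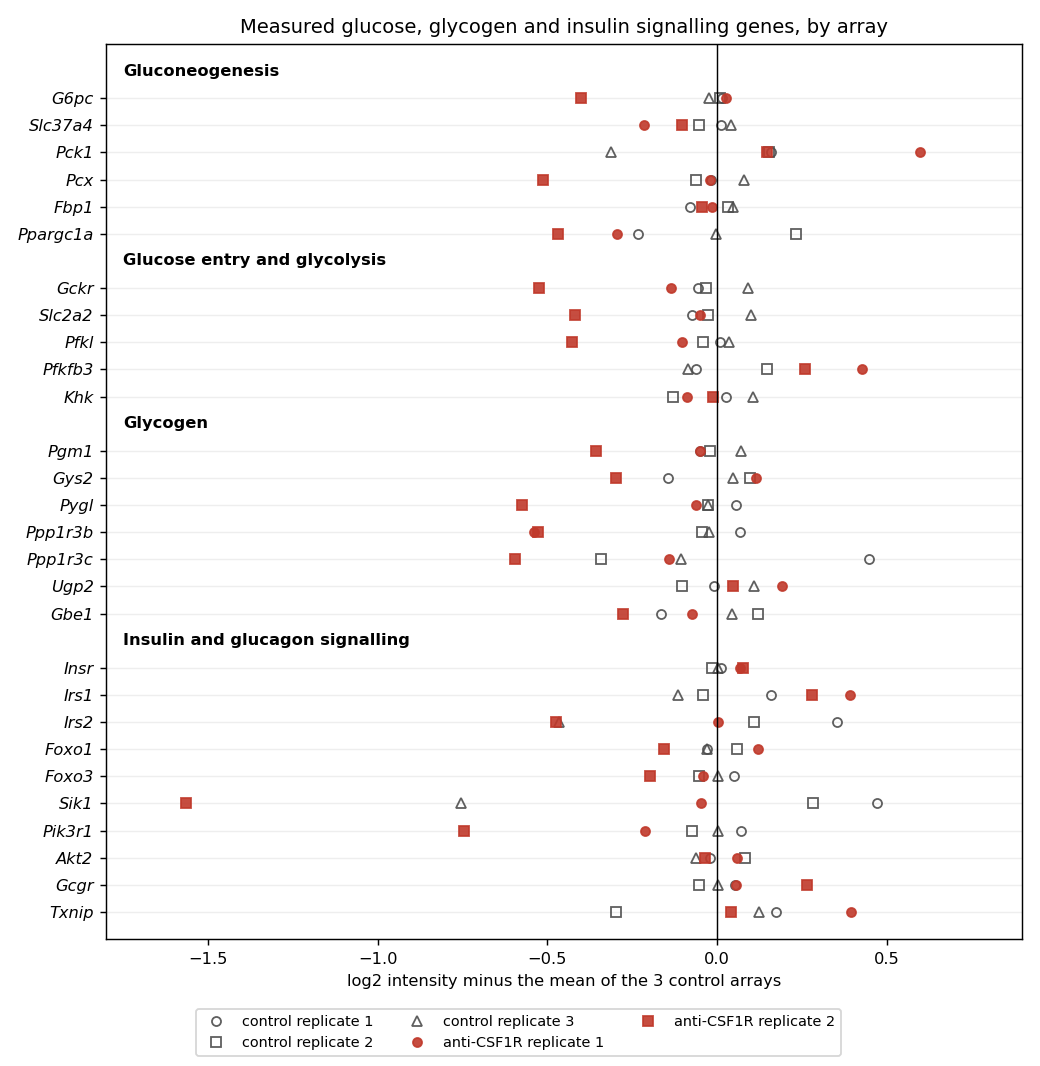
Log2 intensity of each measured gene minus its mean over the 3 control arrays, with 1 point for each of the 5 arrays (open grey, control; filled red, anti-CSF1R) and genes grouped by role. Red squares, treated replicate 2, lie left of the red circles, treated replicate 1, for 23 of 28 genes.

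The treated arrays themselves differed over the list. Treated replicate 2 was below treated replicate 1 for 23 of the 28 genes (82.1%), whereas it was below for 49.1% of the bright genes and 53.6% of all genes. The median gap, replicate 2 minus replicate 1, was -0.29 on the log2 scale for the list and 0.01 for the bright genes. Without regard to sign, the median gap was 0.29 for the list and 0.19 for the bright genes, so these also differed between the arrays. Over all probe sets, Pearson's r with the controls was 0.983 to 0.984 for treated replicate 2 and 0.987 to 0.989 for replicate 1. Treated replicate 2 lay under all 3 controls for 18 of the 28 genes, against 48.4% of the bright genes. Treated replicate 1 did so for 7, against 47.6%. The median deviation from the control mean was -0.03 on the first treated array and -0.29 on the second, where the bright genes had -0.09 and -0.10. Most of the list's lower mean therefore came from 1 array, and the list's median equals these values when either treated array is used alone. Leaving out treated replicate 1 gave 18 genes below all controls, where 31.2% of all genes were below. Leaving out control replicate 1 or 2 gave 11, where 4900 and 4470 of all 18820 genes were below. Leaving out treated replicate 2 gave 10 above and 7 below, where all genes had 36.2% and 29.5%. What sets treated replicate 2 apart was not tested.

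Among gluconeogenic genes, 5 of 6 had lower means in treated liver, with a median difference of -0.17, and the exception was Pck1. G6pc, the catalytic subunit of glucose-6-phosphatase, stood at 12.35, 12.34 and 12.31 in controls and at 12.36 and 11.93 in treated liver. The first treated array matched the controls and only the second was low, so the difference was -0.19 ± 0.15 (SE, 3 control and 2 treated arrays, as for each difference below). Without treated replicate 2 it was 0.03. Slc37a4, which carries glucose-6-phosphate into the endoplasmic reticulum for that enzyme, was at 10.62, 10.56 and 10.65 in controls and 10.39 and 10.51 in treated liver. Both treated values were lower than all controls, by a small amount (-0.16 ± 0.11). Pcx, pyruvate carboxylase, which turns pyruvate into oxaloacetate, was at 10.91, 10.87 and 11.01 against 10.91 and 10.42. As with G6pc only treated replicate 2 was low, and the difference of -0.27 ± 0.17 was -0.02 without it.

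Pck1, the cytosolic phosphoenolpyruvate carboxykinase, was at 11.77, 11.77 and 11.30 in controls and 12.21 and 11.76 in treated liver. Treated replicate 1 held its highest value and control replicate 3 its lowest, while the other 3 arrays were nearly equal. The difference was 0.37 ± 0.21 (adjusted p = 0.359 in limma). It was 0.15 without treated replicate 1, and 0.60 with that array as the lone treated one. Fbp1, fructose-1,6-bisphosphatase, was at 12.57, 12.68 and 12.70 against 12.63 and 12.61, with both treated values inside the control range. Ppargc1a, the coactivator PGC-1alpha that drives gluconeogenic transcription, was at 7.47, 7.93 and 7.70 against 7.40 and 7.23. Both treated arrays were below all controls, but the gap to control replicate 1 was small (-0.38 ± 0.16, adjusted p = 0.283 in limma). A second probe set of Ppargc1a was in the same order, at 6.38, 6.59 and 6.41 against 6.36 and 6.06 (-0.25 ± 0.14).

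Of the 5 genes of glucose entry and glycolysis 4 had lower means, with a median of -0.24. This median was -0.14 with quantile normalization or cyclic loess, so its rank among the groups depends on the scaling. Slc2a2, the glucose transporter GLUT2 of the hepatocyte surface, was at 11.04, 11.08 and 11.21 in controls and 11.06 and 10.69 in treated liver. Treated replicate 1 was inside the control range and replicate 2 below it (-0.24 ± 0.15). Gckr, the regulatory protein that holds glucokinase inactive in the nucleus, was at 10.05, 10.08 and 10.20 against 9.98 and 9.59, with both treated values lowest (-0.33 ± 0.15, adjusted p = 0.294 in limma). Pfkl, the liver phosphofructokinase, was at 7.50, 7.45 and 7.52 against 7.39 and 7.06, again with no overlap (-0.27 ± 0.13, adjusted p = 0.322). In Gckr and Pfkl the low value of treated replicate 2 made up most of the difference, which was -0.14 and -0.10 without it.

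Pfkfb3, an inducible form of the enzyme that makes and removes the phosphofructokinase activator fructose-2,6-bisphosphate, went the other way. It was at 5.78, 5.99 and 5.75 in controls and 6.27 and 6.10 in treated liver, so that both treated arrays were above all controls. The difference was 0.34 ± 0.13, a ratio of 1.27 (adjusted p = 0.245 in limma, 0.145 to 0.506 over the alternatives), and it stayed between 0.26 and 0.49 in every alternative. Khk, ketohexokinase, the first enzyme of fructose use, was at 11.14, 10.99 and 11.22 against 11.03 and 11.10, inside the control range (-0.05 ± 0.12).

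**Figure D2:**
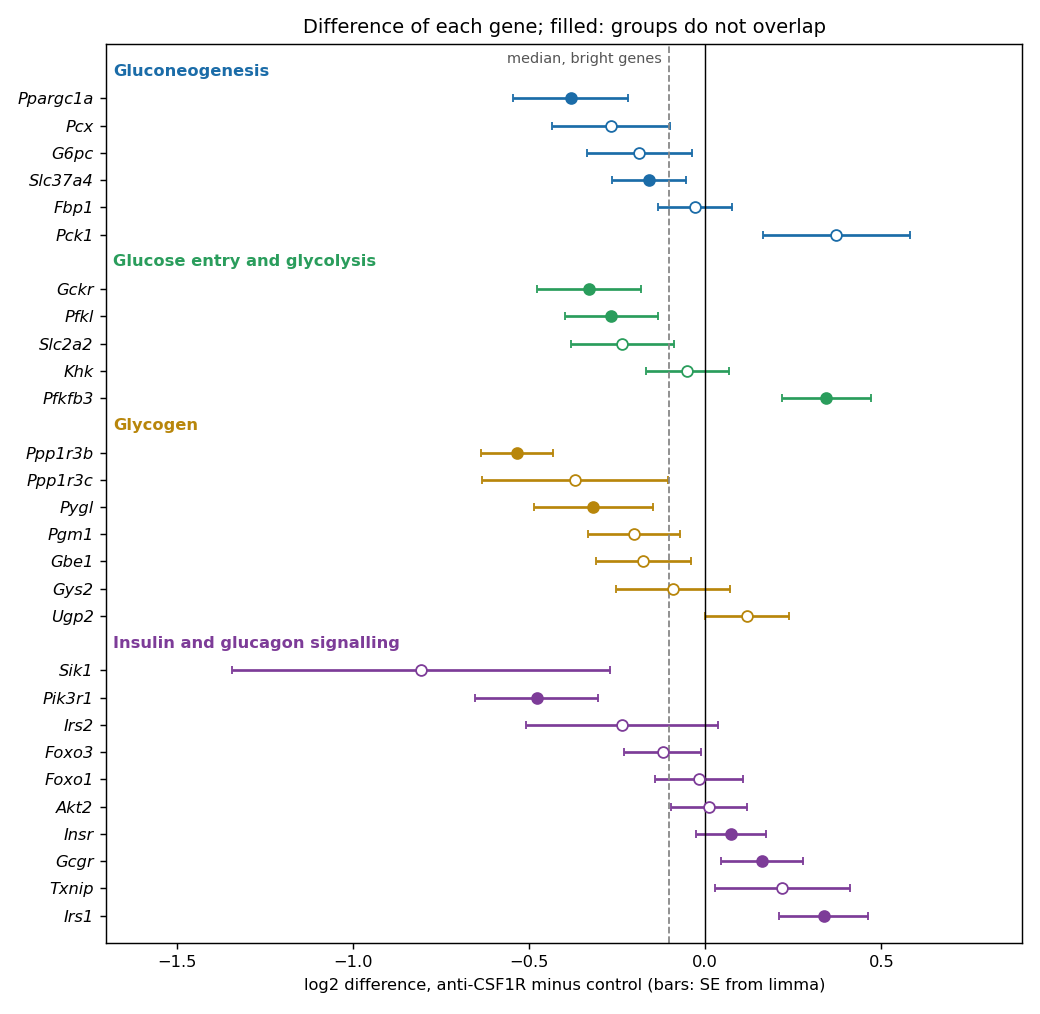
Log2 difference of each measured gene, anti-CSF1R minus control, with its SE from limma, grouped by role and sorted within each group; filled points are genes whose 2 treated and 3 control values do not overlap. The dashed line at -0.10 is the median over the bright genes, and Ppp1r3b at -0.53 has a narrow error while Sik1 at -0.81 has the widest.

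Of the 7 glycogen genes 6 had lower means, with a median of -0.20. Ppp1r3b had the smallest p of the list. It encodes the liver glycogen-targeting subunit (GL) that brings protein phosphatase 1 to glycogen, where it activates glycogen synthase. Its log2 intensity was 8.97, 8.86 and 8.88 in controls and 8.36 and 8.37 in treated liver. The treated arrays were nearly equal and lay well under the lowest control. The difference was -0.53 ± 0.10, a ratio of 0.69, with an adjusted p of 0.187 in limma (0.0762 to 0.398 over the alternatives). With either treated array alone it was -0.53 or -0.54, and it lay between -0.56 and -0.47 in every alternative. Ppp1r3c, the related targeting subunit PTG, was at 9.61, 8.82 and 9.05 against 9.02 and 8.56. Its control values were far apart and its treated ones overlapped them (-0.37 ± 0.26).

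Pygl, the liver glycogen phosphorylase, was at 10.82, 10.74 and 10.74 in controls and 10.71 and 10.19 in treated liver. Both treated values were lower, the first by only a little (-0.32 ± 0.17, and -0.06 without treated replicate 2). Gys2, the liver glycogen synthase, was at 10.27, 10.51 and 10.46 against 10.53 and 10.12, so that the treated arrays held both the highest and the lowest value (-0.09 ± 0.16). Pgm1, the phosphoglucomutase that links glucose-1-phosphate to glucose-6-phosphate (called Pgm2 in older mouse annotation), was at 10.50, 10.53 and 10.62 against 10.50 and 10.20. Only its second treated value left the control range (-0.20 ± 0.13). Gbe1, the glycogen branching enzyme, was at 10.25, 10.54 and 10.46 against 10.34 and 10.14 (-0.18 ± 0.14). Ugp2, which makes the UDP-glucose that glycogen synthase adds to the chain, was the gene of the group with a higher mean, at 9.79, 9.70 and 9.91 against 9.99 and 9.85 (0.12 ± 0.12).

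Signalling genes divided evenly, with 5 higher and 5 lower and a median of -0.0034, which turned to between 0.03 and 0.04 with the other scalings. At the receptors, Insr, the insulin receptor, was at 9.60, 9.57 and 9.59 in controls and 9.66 and 9.67 in treated liver. The groups did not overlap, but the difference of 0.07 ± 0.10 was smaller than its error, and a second probe set went the other way at 9.42, 9.45 and 9.50 against 9.48 and 9.19 (-0.12 ± 0.13). Gcgr, the glucagon receptor, was at 10.63, 10.52 and 10.57 against 10.63 and 10.84. Its treated replicate 1 barely passed the highest control (0.16 ± 0.12).

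The adaptors of the insulin receptor were unlike each other. Irs1 was at 8.41, 8.21 and 8.14 in controls and 8.65 and 8.54 in treated liver, with both treated arrays highest. The difference was 0.34 ± 0.13, a ratio of 1.26 (adjusted p = 0.25 in limma, 0.150 to 0.494 over the alternatives), and it lay between 0.28 and 0.42 in every alternative. Irs2, the adaptor whose gene is itself repressed by insulin in liver, was at 7.67, 7.43 and 6.85 against 7.32 and 6.84. Its values spread widely in both groups and overlapped (-0.24 ± 0.27). Whether Irs1 and Irs2 differed from each other in response was not tested.

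Downstream, Pik3r1, the regulatory subunit p85alpha of phosphoinositide 3-kinase, was at 9.60, 9.46 and 9.54 in controls and 9.32 and 8.79 in treated liver. Both treated arrays were below all controls, with replicate 2 the lower by a wide margin. The difference was -0.48 ± 0.18, a ratio of 0.72 (adjusted p = 0.244 in limma, 0.129 to 0.515 over the alternatives), and it was -0.21 without treated replicate 2. Akt2, the main insulin-responsive AKT kinase of liver, was at 10.32, 10.42 and 10.28 against 10.40 and 10.31. Its treated values were inside the control range (0.01 ± 0.11), and the sign of so small a difference turned with quantile normalization and cyclic loess. A second probe set of Akt2 was at 9.37, 9.39 and 9.33 against 9.395 and 9.43, just above the controls (0.05 ± 0.10).

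Foxo1, the transcription factor restrained by AKT, was at 8.07, 8.16 and 8.07 in controls against 8.22 and 7.94 in treated liver, the treated arrays lying on either side of the controls (-0.02 ± 0.13). Foxo3, a related factor, was at 7.49, 7.39 and 7.44 against 7.40 and 7.24 (-0.12 ± 0.11). Foxo1 was at 0.06 and Foxo3 at 0.01 with quantile normalization, so neither has a stable direction. Txnip, a glucose-induced inhibitor of thioredoxin and of glucose uptake, was at 9.34, 8.87 and 9.29 against 9.57 and 9.21. The groups overlapped, and control replicate 2 was the low one (0.22 ± 0.19).

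Sik1, a kinase induced by glucagon and cyclic AMP that restrains gluconeogenic transcription, varied most. It was at 9.09, 8.91 and 7.87 in controls and 8.57 and 7.06 in treated liver. Control replicate 3 and treated replicate 2 were the low arrays, and the difference of -0.81 ± 0.54 was -0.05 from the first treated array alone and -1.57 from the second. The same arrays were the lowest for Irs2. Among the other 6 measured genes known to be repressed by insulin or induced in fasting, some but not all had a like order, and those named next were chosen after their values were seen. Igfbp1, a secreted binding protein of insulin-like growth factors, was at 9.93, 10.14 and 8.30 in controls and 9.28 and 8.26 in treated liver. Pdk4, a kinase that shuts pyruvate dehydrogenase, was at 8.62, 8.61 and 8.06 against 8.91 and 7.42. For Sik1, Irs2, Igfbp1 and Pdk4 control replicate 3 was the lowest control and treated replicate 2 the lower treated array. Tat and G6pc had this order as well, though the 3 controls of G6pc were nearly equal. Ppargc1a did not, as its lowest control was replicate 1. In contrast, control replicate 3 was the highest control for Angptl4, Cpt1a and Fgf21, and treated replicate 2 was the higher treated array for Angptl4 and Fgf21. Pck1 had the order of Sik1 and Irs2 within each group, but its treated replicate 2 was level with the higher controls. Feeding state and time of day at collection are not given in the labels, and their part in this spread was not tested.

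**Figure D3:**
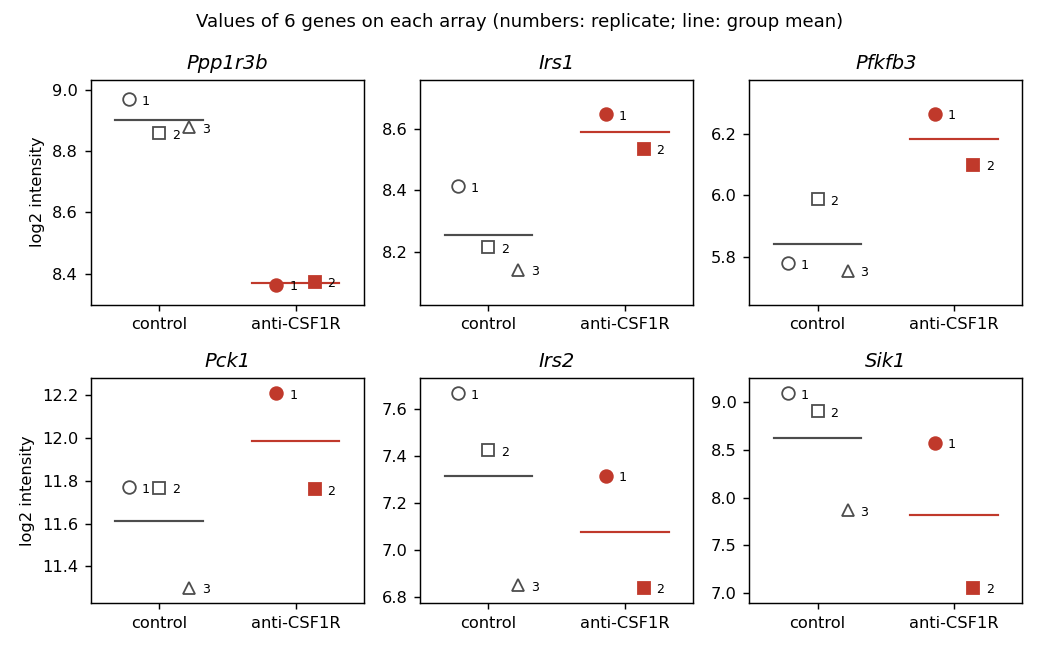
Log2 intensity of 6 genes on each array, with replicate numbers beside the points and a line at each group mean; axes differ between panels. In the top row the groups do not overlap, Ppp1r3b lower and Irs1 and Pfkfb3 higher in treated liver; in the bottom row control replicate 3 is the lowest control for Pck1, Irs2 and Sik1.

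Other genes of the same pathways gave a similar picture. Of 102 listed, 88 were measured, of which 0 passed an adjusted p of 0.05 in limma, and 1 was higher and 10 lower at an unadjusted p of 0.05. Their median difference was -0.12, and both treated arrays lay above all controls for 7 (7.95%) and below for 30 (34.1%). The shares were 25.1% and 19.5% over all genes and 8.64% and 32.6% over bright genes. Not all of the 88 are bright genes, as their lowest mean log2 intensity was 3.99, so neither share is an exact background. The counts here and in the sublists below are no result about these genes. Treated replicate 2 was below replicate 1 for 59 of the 88 (67.0%), and whether this share differs from that of the 28 was not tested.

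Among 15 other gluconeogenesis genes 3 were higher and 12 lower by their means (median -0.11), with no overlap for 1 higher and 7 lower. They included the glucocorticoid receptor Nr3c1 (-0.26 ± 0.12), the muscle form of fructose-bisphosphatase Fbp2 (0.29 ± 0.14, at a low level), the alanine aminotransferase Gpt2 (-0.22 ± 0.11) and the deacetylase Sirt1 (-0.21 ± 0.12). Among 27 genes of glycolysis and glucose use 7 were higher and 20 lower (median -0.12), with no overlap for 1 and 9. Those with the smallest p were lower without overlap, namely the phosphofructokinase isoforms Pfkp (-0.49 ± 0.10) and Pfkm (-0.28 ± 0.11), Pfkfb2 (-0.43 ± 0.11) and Pgd, an enzyme of the pentose phosphate pathway (-0.59 ± 0.17). Pfkfb4, of the same family as Pfkfb2, was at 0.04 ± 0.16 with overlapping groups. Pfkfb2 and Pfkfb3, which make the same regulator, thus had means in opposite directions.

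Among 15 further glycogen genes 5 were higher and 10 lower (median -0.23), with no overlap for 0 and 6. Gys1, the glycogen synthase of muscle and other tissues, was at 5.74, 5.42 and 5.53 in controls and 4.95 and 4.81 in treated liver (-0.68 ± 0.14, adjusted p = 0.188 in limma). Another phosphomutase, which is now called Pgm2 (-0.31 ± 0.11), the kinase Gsk3b, which inhibits glycogen synthase (-0.31 ± 0.11), and the targeting subunit Ppp1r3e (-0.31 ± 0.15) were also lower on both treated arrays. Among 31 further signalling genes 11 were higher and 20 lower (median -0.07), with no overlap for 5 and 8. Trib3, a pseudokinase that binds AKT, was higher on both treated arrays (0.84 ± 0.20), and Pik3r3, another regulatory subunit of phosphoinositide 3-kinase (-0.50 ± 0.12), the transcription factor Foxa2 (-0.37 ± 0.12) and the kinase Mtor (-0.31 ± 0.10) were lower.

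Genes that respond to insulin or feeding were set beside the list. Of 12 measured genes known to be induced by insulin or glucose, 11 were lower and 1 higher, with a median of -0.39 and 6 of 12 below all controls on both treated arrays, where all genes had 19.5% and bright genes 32.6%. Among the 6 were Srebf1 (-0.83 ± 0.14), Thrsp (-0.64 ± 0.13) and Fasn (-0.71 ± 0.16). This set includes Txnip and Khk, and was chosen with its lipogenic genes known to be low in these samples, so it is not independent evidence of direction. Of 11 genes known to be repressed by insulin or induced in fasting, 8 were lower and 3 higher, with a median of -0.24. On both treated arrays 1 (9.09%) was above and 2 (18.2%) below all controls. All genes had 25.1% above and 19.5% below, and bright genes 8.64% and 32.6%, so these counts are not a result about the set. Of these 11, G6pc, Pck1, Ppargc1a, Irs2 and Sik1 belong to the list itself. Angptl4 (1.15 ± 0.13) was the higher one and Ppargc1a and Tat (-0.29 ± 0.14) the lower ones. Both sets were lower on treated replicate 2, by medians of -0.62 and -0.47, while on treated replicate 1 they stood at -0.23 and 0.0029.

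**Figure D4:**
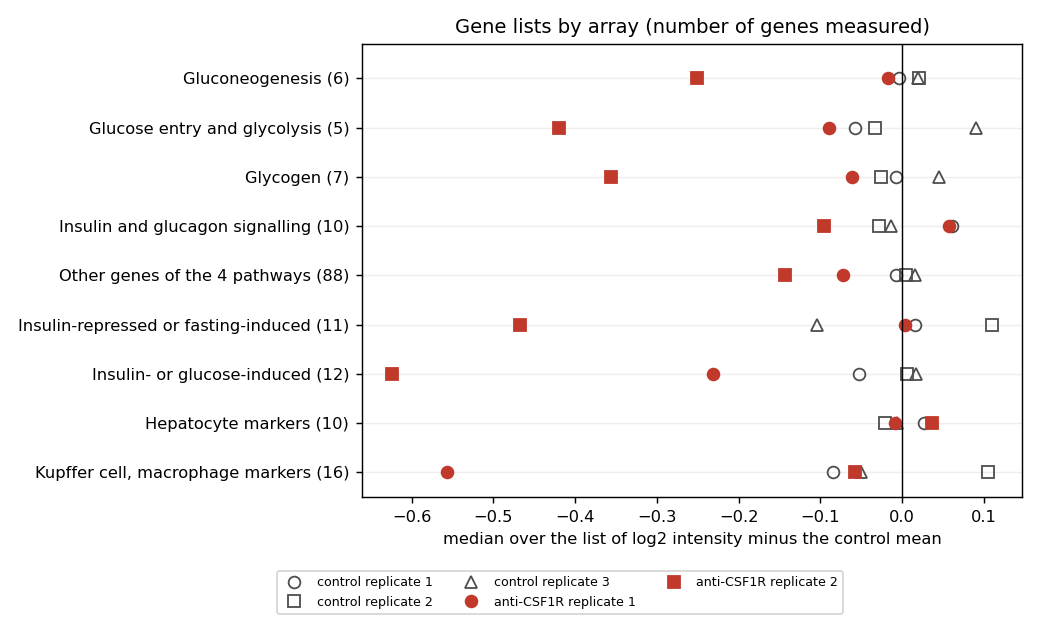
Median over each gene list of the log2 intensity minus the control mean, with 1 point per array and the number of measured genes in brackets. Treated replicate 2 is lowest for the 3 metabolic groups (-0.25, -0.42 and -0.36), for signalling (-0.10) and for both insulin-responsive lists, while the hepatocyte marker median stays near 0 and macrophage markers are lowest on treated replicate 1.

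Cell type markers were read beside these values. The summed intensity of 10 hepatocyte markers was 60669 to 62786 in controls and 61505 to 61691 in treated liver, and their median deviation on treated replicate 2 was 0.04. On that array 4 of the 10 were below all controls and 4 above, with Cps1 at -0.37 and Hnf4a at -0.24 from the control mean and Asgr1 at 0.21. The sum rests on the brightest markers, such as Alb, and the part of hepatocyte content in the result was not tested. Periportal hepatocytes carry most of gluconeogenesis. The summed intensity of 8 periportal markers, which include Pck1, was 16970 to 18441 in controls and 15427 to 18023 in treated liver, with 7 of 8 lower and a median deviation of -0.30 on treated replicate 2 against -0.17 on replicate 1. The 12 pericentral markers summed to 23254 to 24447 and 22763 to 25631, with 6 of 12 lower. Their median deviation was -0.15 on treated replicate 2 and 0.09 on replicate 1. Replicate 2 was below replicate 1 for 10 of these 12 and for all 8 periportal markers. Kupffer cell and macrophage markers were lower by their means for 13 of 16, with a median deviation of -0.56 on treated replicate 1 and -0.06 on replicate 2. Both treated arrays lay below all controls for 7 of the 16 (43.8%), against 32.6% of bright genes and 19.5% of all genes. Marco alone lay above all controls on both (1.34 ± 0.17). Summed over the 16, intensity was 5841 to 6696 in controls and 4657 to 6147 in treated liver. The parts of zonation and of macrophage content in the result were not tested.

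Markers of other cells gave medians of -0.03 (10 sinusoidal endothelial), 0.08 (10 stellate), -0.01 (5 cholangiocyte), 0.10 (10 lymphocyte and neutrophil), 0.21 (6 adipocyte), 0.09 (6 skeletal muscle), 0.16 (3 erythroid) and 0.31 (5 pancreas). The pancreas markers are dim, with summed intensity of 97.1 to 98.6 in controls and 123 to 130 in treated liver, and include insulin (Ins2) at log2 values of 3.60 to 4.11. Dim probe sets as a whole were higher on the treated arrays, whose lower quartiles were 3.74 and 3.68 against 3.55 to 3.58 in controls. The part of this shift in the pancreas values was not tested.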

How the data were processed

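Each of 5 liver samples (3 control, 2 anti-CSF1R) gave 1 array. The authors deposited 1 linear intensity per probe set and array. The submitters' processing notes name Affymetrix Expression Console 1.1; how probes were summarised and normalized is not stated there, so shifts between arrays that depend on level may remain. Intensities were put on a log2 scale as deposited. GEO's platform annotation, which can be old, gave 21218 of 35556 probe sets a single symbol and 1881 several, and 12457 stayed unnamed.

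Groups were compared by a linear model with moderated variance (limma 3.58.1, R 4.3.3), two-sided, with p-values adjusted by the Benjamini-Hochberg method over the 35556 probe sets and called at 0.05. The genes of the list, the other gene lists and the tests were chosen with earlier results of these data known. All genes of the list are named. From each further pathway list up to 4 genes are named, and from the insulin-responsive lists up to 3, by smallest p among those whose groups do not overlap. Other names, and the display of the Irs1 promoter, were chosen after their values were seen. Alternatives covered scaling between arrays, a pseudocount of 16, filters on dim probe sets, the probe set taken per gene, the variance model, weights, a block for replicate number and the removal of single arrays. With a single treated array kept, its variance was taken from the control arrays. The model was tested on simulated data. The number of arrays limits the precision. Figures used matplotlib 3.10.9 (Python 3.11.15).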

Additional observations from a re-analysis of the deposited data

How the results depend on the processing

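In each of the 16 alternatives 0 of the list's genes passed an adjusted p of 0.05 in limma, also where 14 of 18820 genes (0.0744%) passed with 1 probe set per gene fitted alone. Leaving out 1 array gave 7 to 18 genes below all controls and 4 to 10 above them, against 7 and 4 with all arrays. The 18 came without treated replicate 1, the 10 without treated replicate 2, and there were 11 below without control replicate 1 or 2. With an array less, groups lie apart more often for genes in general. Over all 18820 genes these removals gave 4227 to 5869 below and 5624 to 7627 above, against 3671 and 4730 with all arrays. The rise in the list's counts is therefore not a result about the list. Leaving out 1 array moved the median differences to between -0.251 and -0.0175 (gluconeogenesis), -0.419 and -0.0895 (glucose entry and glycolysis), -0.356 and -0.0609 (glycogen), -0.0959 and 0.0567 (signalling) and -0.288 and -0.0311 (all genes of the list), the ends being values from 1 treated array alone. With quantile normalization and cyclic loess the median of glucose entry and glycolysis was -0.139 in both, that of glycogen -0.242 and -0.225 and that of gluconeogenesis -0.221 and -0.222. The signalling median turned to 0.0320 and 0.0417, and to 0.0344 with medians centred. Signs turned for genes near 0: with quantile normalization Foxo1 (0.0573), Foxo3 (0.00657) and Akt2 (-0.0191), with cyclic loess Foxo1 (0.0769), Foxo3 (0.00662) and Akt2 (-0.00344), with medians centred Fbp1 (0.00839) and Foxo1 (0.0193), and with all probe sets of a gene averaged Insr (-0.0245). Leaving out 1 array turned Foxo1 (-0.157 to 0.12), Akt2 (-0.0344 to 0.0577), Khk (-0.116 to 0.00175), G6pc (-0.4004 to 0.0253), Gys2 (-0.299 to 0.115) and Irs2 (-0.474 to 0.00292). In all, 19 values of single genes turned and 429 kept their sign and their side of the threshold. Over all 18820 genes the count above and below all controls was 4730 and 3671, and 5628 and 3015 with medians centred, 3580 and 2791 with quantile normalization and 3117 and 3193 with cyclic loess. With the replicate number as a block, Khk was at 0.0018 and Akt2 at -0.0194, and 0 genes passed. Over all probe sets, deviations of same-numbered samples from their group means had correlations of 0.03 and 0.03. The deviations of 2 treated arrays mirror each other, so these values cannot decide whether the numbers mark pairs. The numbers were not read as pairs in the main fit. The filter at the median level was chosen after seeing the data. With 2 treated arrays, a single array can set a group's mean.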
